A study of Mus musculus with 16 samples.

Results

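The imprinted growth genes described here are *H19*, *Dlk1*, *Meg3*, *Peg3*, *Plagl1*, *Cdkn1c*, *Grb10*, *Mest*, *Ndn* and *Sgce*. They were chosen by name, and all 10 were found by symbol, 1 row each, among the 54838 genes of the deposited count table. RNA was sequenced from the spleens of C57BL/6 mice, an inbred laboratory strain. Each of 8 numbers (407, 408, 427, 435, 436, 445, 447 and 460) had 1 size-selected sample, the cells held back by a strainer after enzymatic digestion and lysis of red cells, and 1 whole spleen sample. The first 4 numbers were from males and the last 4 from females, and the labels give no age, genotype, treatment or allele. The labels name the size-selected source as spleen glia, but the fraction is defined by size and not by a marker or a sort, and the labels do not say that the numbers are separate animals, so a p-value here measures the spread between these samples.

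An imprinted gene is transcribed mainly from the copy inherited from a single parent, and methylation laid down in the germ line marks which copy that is. Imprinted genes lie in clusters, often with a noncoding RNA and a protein-coding gene read from opposite parental copies, and many of them set the growth of the fetus and placenta and are switched down in most tissues after birth. In the adult, several stay on in stromal, endothelial, stem and progenitor cells. *Cdkn1c*, *Grb10*, *H19* and *Meg3* are read from the maternal copy in most tissues, and *Dlk1*, *Peg3*, *Plagl1*, *Mest*, *Ndn* and *Sgce* from the paternal copy. The counts pool both copies, so which copy was read was not measured.

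*Peg3*, *Ndn*, *Sgce*, *Grb10*, *Mest* and *Cdkn1c* were higher in the size-selected fraction than in whole spleen, each in 8 of 8 pairs and with no overlap between the groups of samples. *Peg3* had 0 counts in every whole spleen sample. *Plagl1* was not called, and its samples overlapped between the fractions. *H19*, *Dlk1* and *Meg3* were too low to be tested with the main count filter, and the most that any of them reached in a sample was 1.80 CPM (counts scaled to the size of the library). With edgeR's quasi-likelihood test on all genes (a call is a Benjamini-Hochberg adjusted p under 0.05), 6 of the 10 members were called higher and 0 lower, while 67.9% of the 14510 genes tested were called, 37.5% higher and 30.4% lower. Groups that did not overlap, with the size-selected samples above, were found for 23.3% of all genes tested. The count filter needs 0.686 CPM in 8 samples and so lets through genes that are high in either group. *Peg3*, *Mest*, *Ndn* and *Sgce* reached that level in 0, 6, 4 and 4 whole spleen samples and in all 8 size-selected samples, so they passed only through the fraction where they are high, and their calls give no separate support. *Cdkn1c*, *Grb10* and *Plagl1* reached it in all 8 samples of both fractions. In bulk RNA, a change in the number of cells of a type and a change in the RNA per cell cannot be told apart.

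Because imprinting is tied to methylation of CpG dinucleotides at promoters and control regions, the promoter windows of the members the results turn on are shown here, with each CpG in capitals. The windows run from 250 bases before to 50 bases after the transcription start, 5′ to 3′ on the gene's strand, and come from RefSeq on GRCm38.p6. Of the 10 members, 7 had a window in that set, and *H19*, *Cdkn1c* and *Sgce* did not.
Peg3: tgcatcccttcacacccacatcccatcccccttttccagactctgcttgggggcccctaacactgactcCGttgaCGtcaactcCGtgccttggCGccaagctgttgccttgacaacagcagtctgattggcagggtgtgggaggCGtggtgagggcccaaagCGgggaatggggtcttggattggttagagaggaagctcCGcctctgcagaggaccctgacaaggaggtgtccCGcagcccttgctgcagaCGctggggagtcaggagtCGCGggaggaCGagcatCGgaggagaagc
Ndn: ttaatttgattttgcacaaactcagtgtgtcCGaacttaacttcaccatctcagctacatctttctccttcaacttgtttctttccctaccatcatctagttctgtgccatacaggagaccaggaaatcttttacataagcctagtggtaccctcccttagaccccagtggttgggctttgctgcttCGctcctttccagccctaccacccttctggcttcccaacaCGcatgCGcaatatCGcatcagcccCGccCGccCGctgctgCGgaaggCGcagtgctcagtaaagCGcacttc
Grb10: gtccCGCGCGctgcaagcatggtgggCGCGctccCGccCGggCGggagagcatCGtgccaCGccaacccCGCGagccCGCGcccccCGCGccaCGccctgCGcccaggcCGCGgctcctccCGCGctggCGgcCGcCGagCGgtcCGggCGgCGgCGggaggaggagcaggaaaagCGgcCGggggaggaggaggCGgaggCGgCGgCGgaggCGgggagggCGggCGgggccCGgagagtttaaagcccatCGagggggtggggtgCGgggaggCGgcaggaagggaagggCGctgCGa
Mest: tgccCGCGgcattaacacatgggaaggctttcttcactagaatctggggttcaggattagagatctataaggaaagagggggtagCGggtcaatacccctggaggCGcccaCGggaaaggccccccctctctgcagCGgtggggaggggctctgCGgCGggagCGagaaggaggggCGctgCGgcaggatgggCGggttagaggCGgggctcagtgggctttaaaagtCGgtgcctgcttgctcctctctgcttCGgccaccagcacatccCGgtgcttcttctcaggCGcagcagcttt
Plagl1: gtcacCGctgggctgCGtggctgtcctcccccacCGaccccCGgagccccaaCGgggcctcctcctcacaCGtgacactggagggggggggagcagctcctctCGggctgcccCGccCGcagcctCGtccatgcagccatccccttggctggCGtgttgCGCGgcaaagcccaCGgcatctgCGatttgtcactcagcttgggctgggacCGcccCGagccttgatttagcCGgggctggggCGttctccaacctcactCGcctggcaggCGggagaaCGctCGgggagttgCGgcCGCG
The *Peg3* window lies at chr7:6730370-6730669 (minus strand), *Ndn* at chr7:62348027-62348326 (plus), *Grb10* at chr11:12037371-12037670 (minus, the more upstream of its 2 starts), *Mest* at chr6:30737803-30738102 (plus, 1 of 3 starts) and *Plagl1* at chr10:13090582-13090881 (plus). They hold 13, 11, 45, 17 and 26 CpGs in that order, against a median of 7 over all 32851 RefSeq windows, of which 26.5% hold 20 or more. The windows not printed hold 9 CpGs for the downstream start of *Grb10*, 8 and 17 for the other *Mest* starts, 9 for *Dlk1*, and 13 and 1 for *Meg3*, so not every member's window lies above the median. The *Grb10* window has an observed-to-expected CpG ratio of 0.97 and the *Plagl1* window of 0.70, against a median of 0.38 over all windows. The *Ndn* window, with a ratio of 0.62, stands at 51.0% GC, below the 52.7% median of all windows. The palindrome GGGGCCCC, a binding sequence of the zinc finger protein encoded by *Plagl1*, is in 1 of the 11 windows of the 7 members, that of *Peg3*, and in 1.08% of all windows. CCATNTT on either strand, a core sequence bound by YY1, is in 1 of the 11, the downstream *Grb10* window not printed here, and in 16.1% of all windows. TATAAA on either strand is in 1 of the 11, a window of *Meg3*, and in 13.6% of all windows. These are matches of letters and not measured binding, and no methylation was measured.

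*Cdkn1c* encodes an inhibitor of cyclin-dependent kinases that brings cells out of the division cycle, and it lies on chromosome 7 (143458339 to 143461050, minus strand, GRCm38, ENSMUSG00000037664). Its level in the size-selected samples was 16.3 CPM at the lowest (408), 27.9 at the median and 61.5 at the highest (427), against 3.52, 4.87 and 7.02 in whole spleen. Every size-selected sample was thus above every whole spleen sample, although 408 lay closest to the whole spleen range and 427 lay apart above the others. The difference was 2.59 on the log2 scale (SE 0.24, n = 8 samples per fraction, not paired in the fit, edgeR adjusted p = 1.91e-08), a ratio of means of 6.04. An antisense gene, *Gm44732*, shares 625 exon bases with *Cdkn1c*, and its own counts reached 6.32 at most.

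*Grb10* encodes an adaptor protein that binds the activated insulin and insulin-like growth factor receptors and restrains their signal. It lies on chromosome 11 (11930508 to 12038683, minus strand, ENSMUSG00000020176). *Grb10* stood at 23.3, 54.9 and 71.1 CPM (lowest, median and highest) in the size-selected samples and at 1.01, 2.21 and 3.28 in whole spleen. Numbers 408 and 435 were the low pair, at 23.3 and 24.9 CPM, and the other 6 size-selected samples lay between 49.0 and 71.1, so the samples of this fraction fell into a low and a high set. The lowest of them was still above the highest whole spleen sample. The fold change was 4.47 on the log2 scale (SE 0.26, edgeR adjusted p = 1.69e-10), and without numbers 408 and 435 it was 4.67.

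*Peg3* encodes a large zinc finger protein that binds DNA and regulates other genes, and it lies on chromosome 7 (6703892 to 6730431, minus strand, ENSMUSG00000002265). Its size-selected samples held 31.7 to 275 estimated counts of it, or 1.79 (435), 5.09 (median) and 15.0 CPM (436). Whole spleen held 0 counts in all 8 samples, which allows at most 3 counts over the group, or 0.0268 CPM. Against that limit *Peg3* was at least 223-fold higher in the size-selected fraction (edgeR adjusted p = 6.73e-07). Sample 436 was the highest, and the next was 460 at 6.54 CPM. Within this set, *Peg3* and *H19* were at 0 throughout whole spleen, and *Peg3* had enough counts in the other fraction to be tested.

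*Plagl1*, a zinc finger transcription factor that arrests the cell cycle and activates other imprinted genes, was the tested member that was not called. It lies on chromosome 10 (13060504 to 13131694, plus strand, ENSMUSG00000019817). The size-selected samples stood at 0.728, 5.79 and 7.69 CPM and the whole spleen samples at 1.07, 3.98 and 6.18, so the groups overlapped almost entirely. Size-selected was the higher sample in 6 of 8 pairs. Number 435 went the other way most clearly, with 0.728 CPM in the size-selected sample and 3.71 in whole spleen. The difference was 0.39 on the log2 scale (SE 0.39, edgeR adjusted p = 0.386), and the range over leaving out each number was 0.19 to 0.55.

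*Ndn* encodes necdin, a MAGE-family protein first known from postmitotic neurons that restrains division and binds other regulatory proteins. It lies on chromosome 7 (62346569 to 62350262, plus strand, ENSMUSG00000033585). *Ndn* stood at 24.3 (435), 51.4 and 82.5 CPM (427) in the size-selected samples and at 0.210 (435), 0.668 and 3.51 (427) in whole spleen. The same numbers thus marked the lowest and the highest sample in both fractions, and 408, at 27.8 CPM, joined 435 in a low pair of the size-selected group. The fold change was 5.36 on the log2 scale (SE 0.45, edgeR adjusted p = 6.83e-09), with a ratio of means of 40.1.

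*Mest* encodes a membrane enzyme of the hydrolase family that is used as a mark of mesoderm and of expanding fat tissue, on chromosome 6 (30723547 to 30748465, plus strand, ENSMUSG00000051855). Its size-selected samples stood at 7.96 (408), 10.1 and 21.2 CPM (436), and its whole spleen samples at 0.326, 1.25 and 2.25. The groups did not overlap, and 436 lay apart from the next sample, 427 at 12.5 CPM. The fold change was 3.22 on the log2 scale (SE 0.32, edgeR adjusted p = 6.70e-08). *Mest* shares 912 exon bases with *Copg2*, which is read from the opposite strand and had up to 1079 counts in a sample. No strand setting is given in the sources used here, so part of the *Mest* value is uncertain. *Copg2* itself was not called (0.29 on the log2 scale, SE 0.14, adjusted p = 0.0747, and 0.0396 with the number as a block).

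*Sgce* encodes epsilon-sarcoglycan, a transmembrane protein of the dystrophin-associated complex that links the cell's skeleton to the matrix, on chromosome 6 (4674350 to 4747207, minus strand, ENSMUSG00000004631). The size-selected samples stood at 18.3 (435), 28.7 and 49.0 CPM (436), with 427 at 47.6. Whole spleen stood at 0.0778 (407), 0.860 and 1.76 CPM (447), and no whole spleen sample reached the size-selected range. The fold change was 5.07 on the log2 scale (SE 0.40, edgeR adjusted p = 3.23e-09). The deposited size-selected values of *Sgce* carry a pair of multiplying constants below 1 that the whole spleen values lack, and dividing them out gave 5.45 (SE 0.40). *Peg3*, *H19* and *Meg3* carry such a constant too, and the other 6 members do not.

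**Figure D1:**
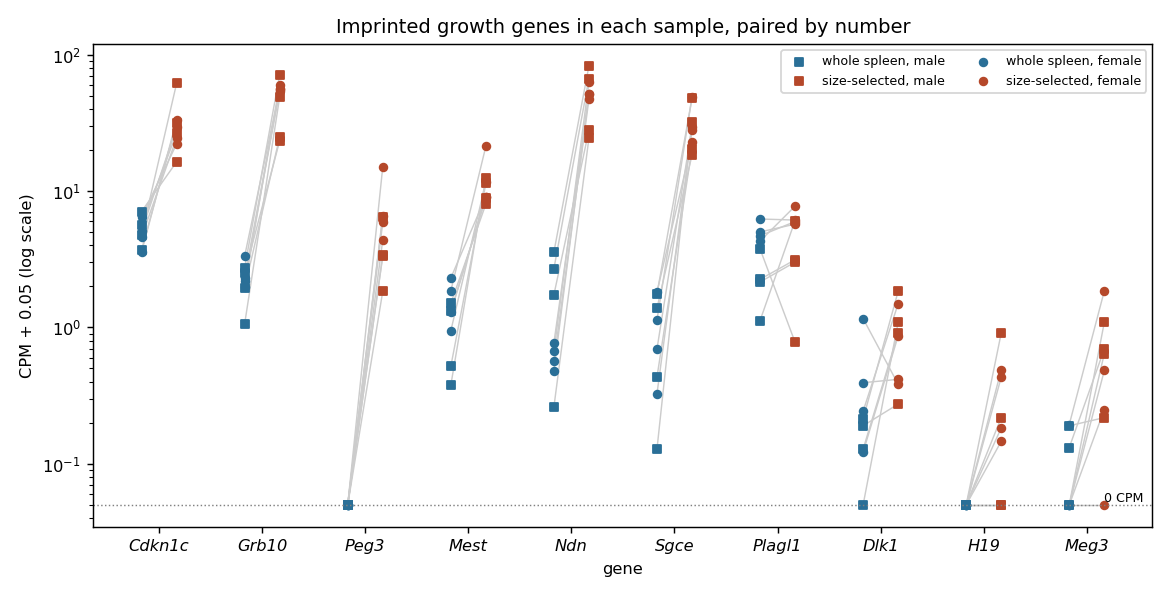
CPM plus 0.05 on a log scale for the 10 members in the 8 whole spleen samples (blue) and the 8 size-selected samples (red), with squares for males, circles for females and grey lines joining samples of the same number. For *Cdkn1c*, *Grb10*, *Peg3*, *Mest*, *Ndn* and *Sgce* all 8 red points lie above all 8 blue points, for *Plagl1* they overlap, and *H19* and *Peg3* sit at 0 CPM in every whole spleen sample.

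*H19*, *Dlk1* and *Meg3* did not pass the count filter, and their values come from a fit without one, in which 43.5% of 28235 genes were called and 25.3% were called higher. All 10 members enter that fit. Of them, 9 were called higher, *Plagl1* was not called, and the median was 3.95 on the log2 scale against 0.14 over all genes. Each of the low genes is described by its counts first, since a few reads decide it.

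*H19* is a noncoding RNA of the fetal liver and muscle that carries a microRNA in its exon, on chromosome 7 (142575529 to 142578143, minus strand, ENSMUSG00000000031). It had 0 counts in all 8 whole spleen samples and 11.6 (427), 6.65 (436), 6.16 (445), 3.26, 2.37, 1.60, 0 and 0 in the size-selected samples. Numbers 407 and 408 were the ones at 0. All 8 together summed to 31.6, at least 9.12-fold above the limit for whole spleen (edgeR without a filter, adjusted p = 0.00262). With the multiplying constant divided out, the same samples held whole numbers of reads, from 2 to 14 where it was not 0.

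*Dlk1* encodes a membrane protein related to the Notch ligands that holds back fat cell differentiation, on chromosome 12 (109452823 to 109463336, plus strand, ENSMUSG00000040856). Its size-selected samples held 4 to 30.0 counts and its whole spleen samples 0 to 17, and the groups overlapped. The whole spleen sample of number 447, from a female, held 17 counts against 5 in its size-selected sample. In the other 7 pairs the size-selected sample was the higher in CPM, although number 445 had 5 counts in each fraction. The fold change without a filter was 1.59 on the log2 scale (SE 0.62, edgeR adjusted p = 0.0427). When any of numbers 407, 408, 427, 436 or 460 was left out it was 1.36 to 1.46 and lost the call (adjusted p from 0.0864 to 0.120). Without number 447 it was 2.58 (adjusted p = 0.00162).

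*Meg3* is a long noncoding RNA on the same chromosome (109541001 to 109571726, plus strand, ENSMUSG00000021268), read from the maternal copy while *Dlk1* is read from the paternal one. Its size-selected samples held 0 to 33 counts, with 436 the highest and 445 at 0. In whole spleen it had at most 2 counts, in numbers 435 and 436, and 0 in 5 samples. The fold change without a filter was 3.49 (SE 0.85, edgeR adjusted p = 0.00170), and over leaving out each number it ran from 3.19 to 4.07. *Meg3* shares 1228 exon bases with *Gm26906* on the opposite strand, which had 1.81 counts at most.

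MicroRNA pairs that lie inside *H19*, *Mest* and *Meg3* are set out by their mature sequences (RefSeq, GRCm38.p6), with the seed, bases 2 to 8, in capitals, because the host transcripts differed between fractions while the libraries do not measure the short products.
mmu-miR-675-5p: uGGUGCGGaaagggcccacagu
mmu-miR-675-3p: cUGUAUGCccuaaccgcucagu
mmu-miR-335-5p: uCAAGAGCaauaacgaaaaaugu
mmu-miR-335-3p: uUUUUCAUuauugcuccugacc
mmu-miR-770-5p: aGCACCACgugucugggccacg
mmu-miR-770-3p: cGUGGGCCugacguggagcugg
The miR-675 pair comes from an exon of *H19* (mature sequences at chr7:142577112-142577133 and chr7:142577078-142577099, minus strand), in 3 of the 4 annotated *H19* transcripts that span it. The miR-335 pair lies in an intron of *Mest* (chr6:30741314-30741336 and chr6:30741354-30741375, plus strand). The miR-770 pair lies inside *Meg3* (chr12:109563710-109563731 and chr12:109563744-109563765, plus strand), in an exon of 1 of the 4 annotated *Meg3* transcripts that span it. No 2 of the printed seeds are the same. The rows of the count table for these 3 hairpins were at 0 in all 16 samples.

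Levels were ordered between genes as CPM per kilobase of merged exons (GENCODE release M21). In the size-selected samples the means were 15.0 ± 6.67 for *Cdkn1c*, 14.0 ± 5.26 for *Ndn*, 5.41 ± 1.84 for *Grb10*, 2.91 ± 1.10 for *Sgce* and 2.90 ± 1.08 for *Mest* (SD, n = 8). *Plagl1* followed at 0.609 ± 0.291 and *Peg3* at 0.436 ± 0.305, and *Dlk1*, *H19* and *Meg3* were at 0.152, 0.105 and 0.0337. *Ndn* was above *Grb10*, *Grb10* above *Sgce* and *Mest* above *Plagl1* in 8 of 8 samples. *Cdkn1c* and *Ndn* did not differ beyond their spread (*Cdkn1c* higher in 4 of 8 samples), nor did *Plagl1* and *Peg3* (5 of 8). *Sgce* was above *Mest* in 3 of 8 samples as deposited and in 8 of 8 on restored counts (3.70 ± 1.41 against 2.73 ± 1.02), since the deposited values of *Sgce* carry the constants and those of *Mest* do not. In whole spleen *Cdkn1c* led at 2.48 ± 0.604 and *Plagl1* was next at 0.465 ± 0.220, ahead of *Ndn* at 0.349 ± 0.327.

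The authors' deposited table lists 2201 genes, whose smallest log2 fold change is 3.50, and it holds 5 of the 10 members. Their mean levels there in TPM (a level scaled for gene length and library size) are 34.7 for *Sgce*, 17.4 for *Ndn*, 12.1 for *Grb10*, 1.14 for *Peg3* and 0.294 for *H19*. *Sgce* leads *Ndn* and *Grb10* on that TPM scale and comes after both on CPM per kilobase of merged exons. The authors' deposited table gives log2 fold changes of 5.35 for *Ndn*, 4.90 for *Sgce* and 4.39 for *Grb10*. For *Peg3* and *H19* it gives 7.95 and 4.04, with a whole spleen TPM of 0, so no finite ratio lies behind them.

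The members' neighbours in their imprinted clusters were read from the same fit. Of 35 listed neighbours 17 passed the filter, 11 were called higher and 0 lower, with a median of 0.91 on the log2 scale against 0.05 over all genes. Over all 14510 genes tested 37.5% were called higher and 30.4% lower. *Igf2*, the fetal growth factor whose start is 88.7 kb from that of *H19*, stood at 18.1, 30.1 and 75.4 CPM in the size-selected samples and 0.0653, 0.446 and 1.31 in whole spleen. Its fold change was 5.90 (SE 0.40, edgeR adjusted p = 6.86e-10), and sample 427 was the highest for both *Igf2* and *H19*. Per kilobase of exon *Igf2* was at 6.05 CPM in the size-selected samples, against 0.105 for *H19*. *Igf2*, *Kcnq1*, *Tfpi2*, *Asb4*, *Snrpn*, *Ppp1r9a* and *Slc22a18* did not reach the filter's 0.686 CPM in all 8 whole spleen samples. They passed only through the fraction where they are high, so their calls give no separate support. The same limit holds for other listed genes that low in whole spleen.

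Some genes whose starts lie close to a member's had far fewer counts than the member. The starts of *Peg3* and *Usp29*, which encodes a ubiquitin protease, lie 147 bases apart on opposite strands, and their RefSeq windows share 263 bases. *Peg3* had 775 estimated counts over the size-selected samples and *Usp29* had 1, with 0 in whole spleen. The starts of *Sgce* and *Peg10*, a gene of retrotransposon origin needed by the placenta, lie 99 bases apart. *Sgce* had 4010 counts over the size-selected samples, and *Peg10* had 62 there and 17 in whole spleen, which was not called without a filter (1.44 on the log2 scale, SE 0.76, edgeR adjusted p = 0.130). *Ndn* had 6555 counts and *Magel2*, a MAGE gene 30.4 kb away, had 1.

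Around *Ndn*, the more distant *Snrpn*, which encodes a splicing protein, was higher in the size-selected samples by 3.52 (SE 0.34), and *Ube3a*, a ubiquitin ligase, was not called (-0.11, SE 0.10). *Mkrn3* had 34 counts against 0 and *Peg12* 72 against 11. Around *Sgce*, *Tfpi2*, an inhibitor of matrix proteases, was higher by 5.34 (SE 0.57), *Asb4* by 5.21 (SE 0.53), *Ppp1r9a* by 1.71 (SE 0.37), *Pon3* by 0.71 (SE 0.21) and *Casd1* by 0.49 (SE 0.15), while *Pon2* was at 0.18 and not called (adjusted p = 0.0532, and 0.0110 on restored counts).

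Around *Cdkn1c*, the potassium channel gene *Kcnq1* was higher by 5.03 (SE 0.58), *Osbpl5* by 1.83 (SE 0.17), *Slc22a18* by 1.07 (SE 0.31) and *Cd81* by 0.91 (SE 0.15). *Kcnq1ot1*, the paternal noncoding RNA that silences the cluster on its own copy, was at -0.69 (SE 0.32, edgeR adjusted p = 0.0594, and 0.0443 on restored counts). *Tssc4* (-0.16, SE 0.11) and *Nap1l4* (-0.23, SE 0.13) were not called. In the *Dlk1* cluster, *Rian*, a noncoding RNA downstream of *Meg3*, had 51.5 counts against 1 and was called without a filter (4.49, SE 0.78, edgeR adjusted p = 4.62e-05). *Rtl1* and *Mirg* had 6 counts each in the size-selected samples and *Dio3* had 13. Next to *Grb10*, *Cobl* had 240.0 counts against 3 and *Ddc* 41 against 49. *Ins2*, *Zim1*, *Phlda2*, *Ascl2* and *Klf14* had 23.6 counts or fewer over a group, and *Zfp264* and *Calcr* had 0 in all 16 samples.

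**Figure D2:**
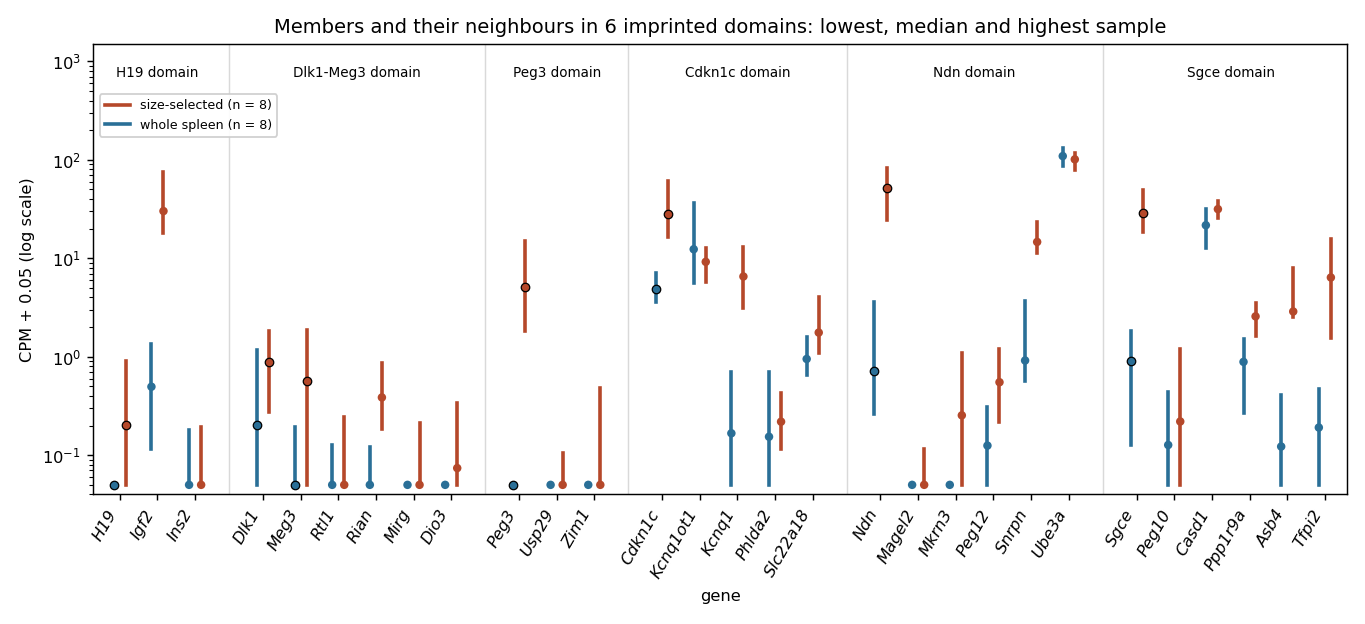
CPM plus 0.05 on a log scale for members (black-edged points) and their neighbours in 6 imprinted domains, with the median as a point and the lowest to highest of 8 samples as a line, size-selected in red and whole spleen in blue. *Igf2* stands far above *H19*, *Peg3* above *Usp29*, *Ndn* above *Magel2* and *Sgce* above *Peg10* in the size-selected samples.

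Relatives of the members by protein family differed in direction. Of 16 listed paralogs 11 passed the filter, 7 were called higher and 4 lower, with a median of 2.10. Over all genes tested 37.5% were called higher and 30.4% lower. Of the CDK inhibitors related to *Cdkn1c*, *Cdkn1a*, a gene switched on by damage to DNA, was higher by 2.09 (SE 0.18) and *Cdkn1b* was lower (-1.06, SE 0.15). Of the *Grb10* relatives, *Grb14* was higher by 5.78 (SE 0.59) and *Grb7* lower (-1.69, SE 0.36). *Plagl2*, the relative of *Plagl1*, was lower (-0.49, SE 0.15), a call lost when libraries were scaled by their totals alone (adjusted p = 0.0556). Among the MAGE genes related to *Ndn*, *Maged1* was higher by 3.38 (SE 0.23), *Maged2* by 3.74 (SE 0.34) and *Nsmce3* was lower (-0.47, SE 0.12). The sarcoglycans *Sgca*, *Sgcb* and *Sgcd* were higher by 5.67, 2.10 and 7.29 (SE 0.64, 0.16 and 0.59). *Sgca* carries a pair of the constants, as *Sgce* does, and stood at 6.37 (SE 0.63) on restored counts. *Dlk2* and *Plag1* had at most 18 counts over a group.

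**Figure D3:**
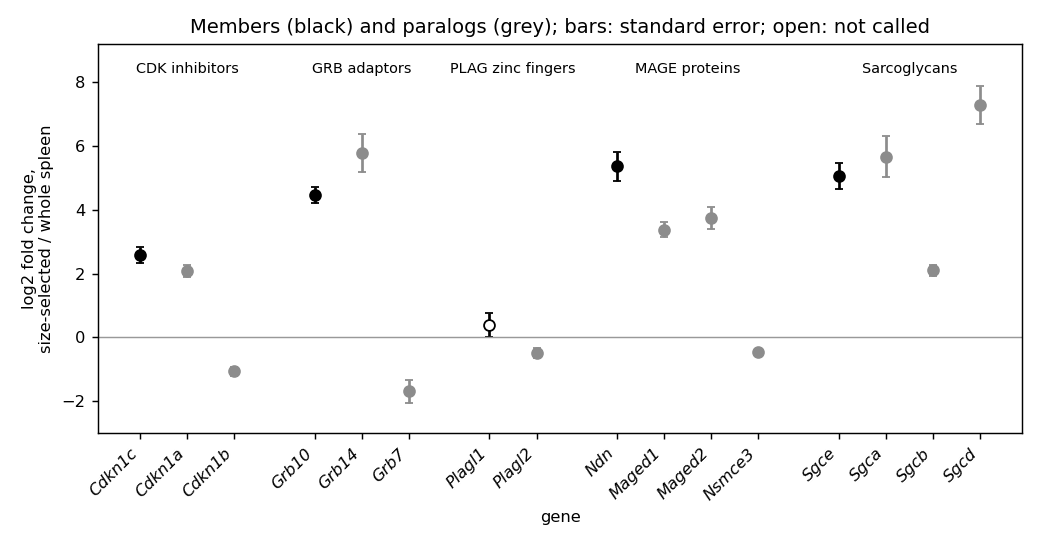
Log2 fold change of size-selected over whole spleen with its standard error (bars) for 5 members (black) and their paralogs (grey), filled where the edgeR adjusted p is under 0.05. Members of the same family fall on both sides of 0 for the CDK inhibitors, the GRB adaptors and the MAGE proteins, while the 4 sarcoglycans shown all lie at 2.10 or above.

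The pathways the members act in were read from the same fit, in which 37.5% of all genes tested were called higher and 30.4% lower. In the dystrophin and sarcoglycan complex of *Sgce*, 11 of 13 genes passed the filter and all 11 were called higher, with a median of 2.88, among them *Dmd*, which encodes dystrophin (4.31, SE 0.32), *Sspn* (4.56, SE 0.33) and *Dag1* (2.45, SE 0.14). Of 11 listed genes of the division cycle (cyclins, their kinases and the proliferation mark *Mki67*), which *Cdkn1c* acts against, *Ccnd1* was called higher (2.27, SE 0.28) and 7 were called lower, with a median of -0.58. Those lower included *Cdk1* (-0.89, SE 0.20), *Cdk6* (-0.84, SE 0.10) and *Mki67* (-1.25, SE 0.49). On restored counts 6 were lower, and *Ccne1* lost its call. Of 7 genes of the insulin-like growth factor axis on which *Grb10* and *Igf2* act, 5 were called higher, among them *Igf1* (1.13, SE 0.19), *Igf1r* (0.77, SE 0.19) and *Irs1* (3.10, SE 0.63), while *Irs2* was lower (-0.60, SE 0.15) and *Igf2r* was not called. Of the 4 Notch receptors, to which *Dlk1* is related as a ligand, *Notch1*, *Notch3* and *Notch4* were called higher (1.58, 6.94 and 4.58) and *Notch2* was not.

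Imprinted genes outside these clusters also differed in both directions. Of 25 listed, 19 passed the filter, 13 were called higher and 2 lower, with a median of 0.97. The shares over all genes tested were 37.5% higher and 30.4% lower. *Slc38a4*, an amino acid transporter, had 611 counts against 0 in whole spleen, at least 176-fold more, and *Dcn*, *Nnat* and *Peg13* were higher by 5.61, 5.04 and 1.89 (SE 0.54, 0.54 and 0.15). *Dcn*, which encodes the matrix protein decorin, is also on the fibroblast marker list. *Zrsr1* was lower (-1.66, SE 0.31), and *H13* was lower as deposited (-0.19, SE 0.06, adjusted p = 0.0144) but not on restored counts (adjusted p = 0.131). *Sfmbt2*, higher by 0.97 (adjusted p = 0.0475), lost its call on restored counts (0.0598) and with the number as a block (0.0718). *Inpp5f*, not called as deposited (-0.41, adjusted p = 0.0640), was called lower with the number as a block (-0.43, adjusted p = 0.0102), on restored counts (0.0395) and with RLE scaling (0.0471).

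Of 6 listed factors that read or maintain the imprint, 5 passed the filter and these 5 were called lower in the size-selected fraction, with a median of -0.70: *Ctcf* (-1.48, SE 0.13), the insulator protein that binds between *H19* and *Igf2*, *Trim28* (-1.10, SE 0.09), *Uhrf1* (-0.70, SE 0.19), *Dnmt1* (-0.58, SE 0.17) and *Smchd1* (-0.57, SE 0.18). Of all genes tested, 30.4% were called lower. *Ctcf*, *Trim28*, *Dnmt1* and *Uhrf1* carry a multiplying constant below 1 in the size-selected columns. On restored counts 4 were called lower, with *Ctcf* at -1.24 and *Trim28* at -0.85, and *Dnmt1* was not called (-0.33, adjusted p = 0.102). Scaling by library totals alone ended the call of *Smchd1* (adjusted p = 0.0532). *Zfp57*, below the filter, had 29 counts against 2 and was called higher in the fit without one (3.10, SE 0.88, edgeR adjusted p = 0.00588).

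Markers of several cell types moved with the members, in a fit that called 37.5% of all genes tested higher and 30.4% lower. Of 11 glia markers 9 passed the filter and 9 were called higher, with summed levels of 80.9 to 646 CPM in the size-selected samples and 2.44 to 11.3 in whole spleen. *Sox10* and *Foxd3*, glial transcription factors below the filter, were at 0.526 to 6.58 and 0.585 to 4.08 CPM, so the glial markers were present in the fraction labelled as glia. All 8 fibroblast markers were called higher, with sums of 1075 to 3790 against 5.02 to 59.7 CPM, and so were all 6 of smooth muscle (768 to 3647 against 8.36 to 69.3), all 7 of endothelium (732 to 1798 against 94.3 to 223) and all 7 of mesothelium (23.9 to 219 against 0.687 to 3.10). All 5 megakaryocyte markers were higher and 3 of 6 macrophage markers. All 5 B cell markers were lower (824 to 3109 against 5072 to 6369 CPM), as were 4 of 5 T cell and all 5 neutrophil markers, while 1 of 5 erythroid markers was. Of 4 adipocyte markers *Fabp4* passed the filter and was called higher (1.80, SE 0.39), *Plin1* and *Cidec* had 0 counts in whole spleen, and the sums were 11.2 to 107 against 7.02 to 18.9 CPM. Of 4 pancreatic markers 3 were below the filter. The part of these cell types in the members' differences was not tested.

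The members were then compared with each other within the size-selected samples. Of 21 pairs among the 7 tested members, 20 had a positive Pearson r over the 8 samples, with a median of 0.65, and 9 had an unadjusted exact permutation p under 0.05. After Benjamini-Hochberg adjustment 1 pair was left, *Mest* with *Sgce* (r = 0.84, rho = 0.90, exact two-sided permutation p = 0.00144 and 0.00456, adjusted 0.0302 and 0.0563), and r was 0.80 without the 2 samples farthest from the median of *Mest*. Scaling by library totals left 0 pairs. *Plagl1* was the member least like the rest, with r from -0.24 (*Cdkn1c*) to 0.65 (*Peg3*). Pairs with *Grb10* or *Ndn* include the low samples 408 and 435. The samples share depth and the mix of cells, so these relations are across libraries and not within cells.

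Each tested member was also set beside 11 marker scores (the mean log2 CPM of a marker list), 77 relations in all, of which 22 had an unadjusted exact p under 0.05 and 5 an adjusted one. *Sgce* was correlated with the fibroblast score (r = 0.96, rho = 0.90, exact permutation p = 8.43e-04 and 0.00456, adjusted 0.0255 and 0.112, and r = 0.84 without the 2 farthest samples). *Mest* was too (r = 0.86, rho = 0.88, exact permutation p = 0.00206 and 0.00724, adjusted 0.0344 and 0.112, and r = 0.69 without the 2 farthest), but not with library totals (r = 0.83, adjusted exact permutation p = 0.0797). Against the glia score r was 0.59 for *Sgce* and 0.74 for *Mest* (rho = 0.31 and 0.40, exact permutation p for r = 0.118 and 0.0430, adjusted 0.286 and 0.158). Without the 2 farthest samples these r were -0.70 and 0.41, so the sign for *Sgce* rests on 427 and 436.

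The other 3 adjusted relations were of *Grb10* to the endothelial, B cell and T cell scores, and there 408 and 435 stood apart with low *Grb10* and high lymphocyte scores. Over the other 6 samples, *Grb10* had r = -0.93 with the B cell score (rho = -0.94, exact permutation p = 0.00972 and 0.0167), r = -0.96 with the T cell score (exact p = 0.00694) and r = 0.81 with the endothelial score (exact p = 0.0806). Among the 22 relations of *Grb10* and *Ndn* computed that way, 0 passed the adjustment (lowest adjusted exact p = 0.107), and 2 had an unadjusted p under 0.05. For *Ndn* over the same 6 samples, r was 0.15 with the glia score, 0.63 with the endothelial score and -0.61 with the B cell score (exact permutation p = 0.738, 0.171 and 0.200).

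**Figure D4:**
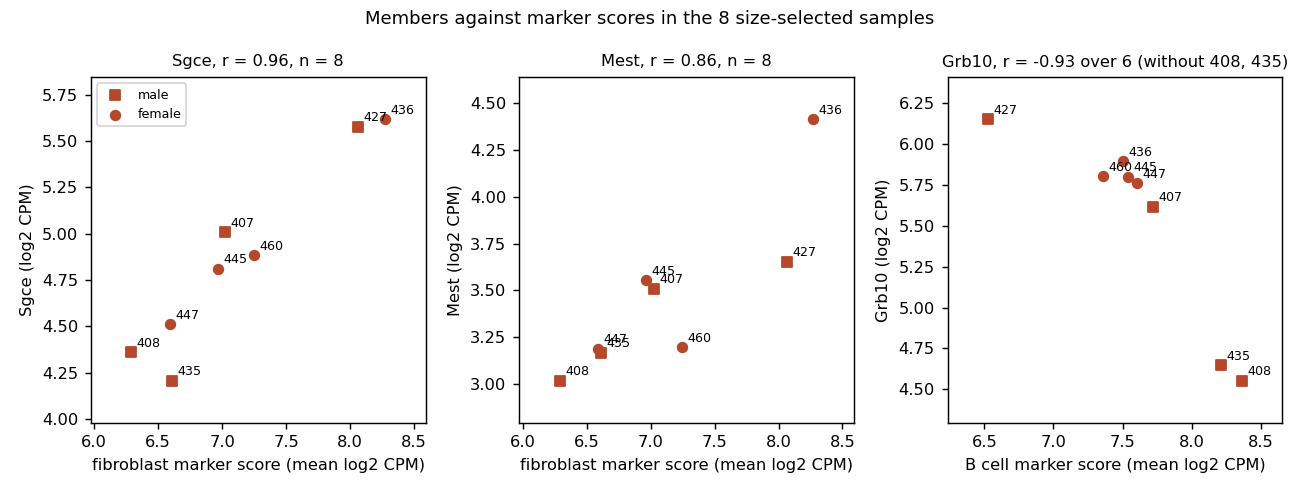
Log2 CPM of *Sgce*, *Mest* and *Grb10* against the fibroblast or B cell marker score (mean log2 CPM) in the 8 size-selected samples, labelled by number. *Sgce* (r = 0.96) and *Mest* (r = 0.86) are highest in 436 and 427, and *Grb10* is lowest in 408 and 435, with r = -0.93 over the other 6 samples.

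Genes outside the set whose pattern over the 8 size-selected samples was most like a member's were named by Pearson r of log2 CPM, as a description. For *Cdkn1c* these were *Nicn1*, *Smpd1* and *A4galt* (r = 1.00, 0.99 and 0.99), and 402 genes reached 0.9. For *Grb10* they were *Adgra3*, *Arhgap29* and *C1qtnf1* (0.99, 0.98 and 0.98) among 322 genes, for *Ndn* *Ppic*, *Khdrbs3* and *Chst7* (0.99 each) among 317, and for *Sgce* *Vgll3* and *Ms4a4d* (0.99 and 0.98) among 230. Fewer genes followed the rest: 52 for *Peg3*, led by *Rnf19a* (0.98), 52 for *Plagl1*, led by *Cflar* (0.98), and 17 for *Mest*, led by *Slc44a1* (0.98). With 8 samples and so many genes, values this close to 1 arise for many genes at once.

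Between the sexes, edgeR called 0 of the 8 members tested in the size-selected samples and 0 of the 6 tested in whole spleen, with 1 and 2 at an unadjusted p under 0.05, and DESeq2 called 0 in each. *H19* and *Meg3* were below the filter in both of these tests, and *Dlk1* and *Peg3* in whole spleen. In the size-selected samples 6 of 15127 genes were called (0.0397%), in whole spleen 26 of 13383 (0.194%), and for the interaction of sex and fraction 0 of 15760 (0%) by edgeR, with 744 at an unadjusted p under 0.05. The whole spleen count was 521 by DESeq2, 273 without a filter and 7 (without 460) to 261 (without 427) over leaving out each number, and the size-selected count was 22 by DESeq2. DESeq2 called 3 for the interaction, and edgeR 3 with the number as a block. *Plagl1* came closest in whole spleen, where the 4 females stood at 4.24 to 6.18 CPM and the 4 males at 1.07 to 3.71. The female-to-male difference was 1.12 on the log2 scale (SE 0.36, edgeR adjusted p = 0.168), and in the size-selected samples it was 0.96 (SE 0.49, adjusted p = 0.999), with females at 5.66 to 7.69 and males at 0.728 to 6.02.

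*Ndn* in whole spleen stood at 0.431 to 0.718 CPM in females and at 0.210 to 3.51 in males, and it was not called (-1.79, SE 0.65, edgeR adjusted p = 0.210). Male 435, at 0.210, was below all 4 females, and the other 3 males were above them. The interaction for *Ndn* was 1.86 (SE 0.75, edgeR adjusted p = 1.00, and 0.542 with the number as a block). *Peg3* stood at 4.32 to 15.0 CPM in size-selected females and at 1.79 to 6.37 in males (1.10, SE 0.46, edgeR adjusted p = 0.999). For *Cdkn1c*, *Grb10*, *Mest* and *Sgce* the sexes overlapped in both fractions.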

How the data were processed

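RNA was sequenced from 8 size-selected and 8 whole spleen samples, matched by number. The submitters' processing notes name mm10, Trim Galore, STAR, RSEM and DESeq, with no role or version. The authors deposited estimated counts per gene, with totals of 13119992 to 19944440 in the size-selected samples and 12153770 to 16282454 in whole spleen. In the size-selected columns the deposited counts of 3898 genes are values multiplied by 1 to 3 constants (0.659 to 0.964), as found from the values. No header mentions this. Restored counts have them divided out. The authors' deposited table gives, per the file headers, a mean signal (base mean), a log2 fold change, a test score, p-values, and TPM and FPKM means per group (the signal, score and FPKM were not used).

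Counts were rounded and tested with edgeR 4.0.16 in R 4.3.3: filterByExpr (minimum count 10), TMM, quasi-likelihood F test with the group as the term, and Benjamini-Hochberg adjustment over all genes. The SE given with an edgeR fold change is its absolute log2 value divided by the square root of F. CPM use TMM-scaled totals, and log2 CPM a prior count of 2. Where a group had 0 counts, a fold was set against 3 counts over the group, which covers counting error only. Samples with the same number deviated together from their group means (r from 0.12 to 0.38 in the 8 pairs, mean 0.21). For different numbers the mean was -0.03 and r ran from -0.33 to 0.23, so the ranges overlapped. Samples with the same number also share a sex. On this basis the numbers were taken to pair the samples. Marker scores used lists with at least 3 genes past the filter, and correlations used all 40320 orders of 8 samples. Promoter and microRNA sequences are RefSeq's (GRCm38.p6), and coordinates GENCODE M21's (GRCm38). Alternatives were DESeq2 1.42.0, limma-voom (limma 3.58.1), scaling by RLE or by library totals, other filters, sex as a covariate, the number as a block, and leaving out each number. Fits without a filter on restored counts, with the block or without each number, the relations and the order per length under other values, and leaving out 408 and 435 together were added after seeing the data. The members and the gene lists were chosen with earlier results of these data known. All members are described. From the lists, the domain neighbours and paralogs past the filter are named with values, and other genes where singled out. A paralog and a gene among the closest patterns are not reported here. The fits were tested on simulated data.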

Additional observations from a re-analysis of the deposited data

Results flagged for a closer look

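The 10 members in 2 fractions, without the 2 groups at 0 throughout, gave 18 groups of 8 samples. Of these, 4 held a sample whose gap to its nearest neighbour was over 0.526 of the group's whole range. For normally distributed values in separate groups, that limit would flag about 5% by chance. These values are CPM without a log scale and the groups share samples, so the 4 flags were not set against that rate. *Cdkn1c* in size-selected sample 427 was at 61.5 CPM, and the next sample at 33.1. *Peg3* in size-selected sample 436 was at 15.0 CPM, and the next at 6.54. *Mest* in size-selected sample 436 was at 21.2 CPM, and the next at 12.5. *Dlk1* in whole spleen sample 447 was at 1.11 CPM, 17 counts, and the next at 0.343. The size-selected samples 436 and 427 also had the highest fibroblast marker scores of the fraction.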

How the results depend on the processing

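The 6 calls among the 10 members were kept by every alternative with a count filter of 10, also without numbers 408 and 435, and a minimum count of 3 gave 7. Of the members' values recomputed between the fractions, 229 kept their side of the threshold and 5 lost the call, all of *Dlk1*, and 0 changed direction. Leaving out each number moved *Cdkn1c* from 2.36 to 2.76, *Grb10* from 4.36 to 4.59, *Mest* from 3.06 to 3.45, *Ndn* from 5.22 to 5.63 and *Sgce* from 4.90 to 5.35 on the log2 scale, and, in the fit without a filter, *H19* from 4.49 to 5.17 and *Dlk1* from 1.36 to 2.58. With 0 counts of *H19* in whole spleen, its fitted values are not a measured fold change. Scaling by library totals moved the median of all genes from 0.05 to 0.18, and no member changed direction. With the number as a replicate block the fraction comparison called 10076 genes against 9855, and no member's call changed. The block gave 3 calls for the interaction, DESeq2 3 and leaving out each number 0 to 1, against 0. Sex calls in whole spleen were 26 in the main fit, 273 without a filter, 521 by DESeq2 and 7 to 261 over leaving out each number (261 without 427, 87 without 436 and 7 without 460). In the size-selected samples DESeq2 called 22 against 6. Library totals left 0 member pairs related, against 1, and 4 relations to marker scores, against 5. Totals of 12153770 counts or more leave *H19*, *Dlk1* and *Meg3* at 33 counts or fewer in every sample, where the depth limits what can be told.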
